A study of Mus musculus with 40 samples.

Results

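Expression of 8 mouse genes of iron import, storage and export was followed in CD11b+ myeloid cells sorted from brains with and without an experimental glioma. The genes were chosen by name for their roles: the ferritin subunits Fth1 and Ftl1 (storage), ferroportin Slc40a1 and ceruloplasmin Cp (export), transferrin receptor Tfrc and the divalent metal transporters Slc11a1 and Slc11a2 (import), and Ireb2 (sensing). Earlier results of these data were known when they were chosen. They are 8 of the 54513 genes listed in each of 3 expression tables, and each of the 8 is present in all 3. Levels are given in RPKM, reads scaled to exon length and library size, obtained by subtracting the constant 2 that the deposited values carry.

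The values come from 35 samples in 11 groups. In the first experiment (21 days post implantation, DPI), C57BL/6 male mice received GL261 tdTomato+luc+ cells, a murine glioma line, in the right striatum, and an osmotic pump delivered water (vehicle), the peptide 7aaRGD or the control peptide 7aaRAE at 2 mg/ml. The peptide 7aaRGD carries the integrin-binding RGD motif, which is changed to RAE in 7aaRAE. Each group held 3 samples, each pooled from 2 animals, and 3 such samples of naive mice without tumor were sorted alongside. Vehicle mice also had surgery and a pump with water, so in comparisons with naive mice tumor, surgery and pump cannot be told apart. In the second experiment (28 DPI), GL261-bearing mice received vehicle (n = 4), 7aaRGD (n = 4), anti-PD-1 antibody (n = 3) or 7aaRGD with anti-PD-1 (the combination, n = 3), with 1 mouse per sample. The antibody, which blocks an inhibitory receptor of T cells, was injected at 10 mg/kg and the other animals received control IgG. The labels of this experiment name nude mice. The study, however, pairs the murine glioma line with the strain of the first experiment and names nude mice for the human line only. It describes the mice given peptide and antibody as immunocompetent. It also lists as a limitation that joint effects of peptide and antibody could not be examined in immunodeficient animals. The labels thus conflict with the study's account, and the strain was not tested here. In the third experiment (21 DPI), Athymic Nude-Foxn1nu mice, which lack most T cells, carried U87-MG RFP+ tumors, a human glioma line, and received vehicle, 7aaRGD or 7aaRAE (n = 3 each, pooled as before). All mice were males of 10 to 12 weeks. The tables were normalized separately, so tests were run within each and levels across them are set side by side only.

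The sorting marker Itgam, which encodes CD11b, was present in all samples (51.2 to 120 RPKM at 21 DPI, 57.8 to 82.2 RPKM at 28 DPI and 126 to 195 RPKM in the U87-MG experiment). Read depth is unknown because the tables hold no counts. On the log2(RPKM + 1) scale the differences between replicates spanned 7 of 8 possible dimensions in the first table and 9 of 10 in the second, so in each of these tables the replicates carry 1 linear relation among themselves. Taking 1 degree of freedom away from the tests of these tables changed no count of iron genes past the threshold. The p-values measure the spread between samples as deposited.

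Cells take up iron mainly as transferrin bound to the transferrin receptor, and the metal is then moved out of the endosome by SLC11A2 (DMT1), while SLC11A1 (NRAMP1) performs a related task in the phagosomes of macrophages. Iron that is not used is stored inside ferritin, a shell of heavy (FTH1) and light (FTL) chains of which the heavy chain oxidizes the metal. Ferroportin, SLC40A1, is the only known exporter of free iron in mammals, and the copper enzyme ceruloplasmin oxidizes the exported iron so that transferrin can bind it. The iron regulatory proteins, of which IREB2 (IRP2) is a member, bind stem-loops in mRNAs, the iron-responsive elements (IREs), when iron is scarce. Binding near the 5′ end blocks translation of ferritin and ferroportin, and binding in the 3′UTR stabilizes the transferrin receptor mRNA. Macrophages recycle iron from engulfed erythrocytes, and microglia are the resident macrophages of the brain.

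Part of the control by iron-responsive elements acts on translation, which mRNA levels do not record. These stem-loops are shown because a search with a fixed pattern found them in 4 of the 8 genes. They were found in annotated UTRs of the GRCm38 (mm10) genome with the pattern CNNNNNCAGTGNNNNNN on the sense strand, in which the 5 bases after the loop pair with the 5 bases before it. Each is given 5′ to 3′ with the loop in capitals:
Fth1 5′UTR, chr19:9982732-9982760, + strand: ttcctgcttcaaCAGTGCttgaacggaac
Ftl1 5′UTR, chr7:45459779-45459807, − strand: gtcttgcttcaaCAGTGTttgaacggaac
Slc40a1 5′UTR, chr1:45925465-45925493, − strand: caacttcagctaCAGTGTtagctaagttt
Tfrc 3′UTR, chr16:32631219-32631247, + strand: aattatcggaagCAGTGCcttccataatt
Tfrc 3′UTR, chr16:32631598-32631626, + strand: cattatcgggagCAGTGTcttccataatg
Tfrc 3′UTR, chr16:32631663-32631691, + strand: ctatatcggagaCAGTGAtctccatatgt
Tfrc 3′UTR, chr16:32631710-32631738, + strand: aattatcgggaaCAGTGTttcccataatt

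The element of Fth1 lay in 4 of its 5 annotated coding transcripts, that of Ftl1 in 1 of 2 and that of Slc40a1 in 1 of 4. All 4 elements found for Tfrc lay in 1 of its 3 coding transcripts. No match was found in annotated UTRs of Slc11a1, Slc11a2, Cp or Ireb2. This says only that no stretch there met both the letters and the pairing rule. An element with an unpaired base next to the loop's stem would be missed. The pattern was rare, in the 5′UTR of 31 of 20899 genes (0.148%) and in the 3′UTR of 129 of 21685 genes (0.595%). A match is a description of the sequence and not evidence that a protein binds it.

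Ferritin mRNA was far more abundant in cells of GL261-bearing hemispheres than in cells of naive brains. Fth1 stood at 289.7, 302 and 306 RPKM in the 3 naive samples and at 1929, 2007 and 2347 RPKM in the 3 vehicle samples. The lowest vehicle sample was thus several times above the highest naive sample. Its log2 fold change was 2.80 (95% interval 2.6 to 3.0, adjusted p = 4.52e-08, limma), a 7.00-fold difference of the means. Ftl1 stood at 504, 511 and 524 RPKM in naive samples and at 2020, 2027 and 2224 RPKM in vehicle samples, again without overlap. Its log2 fold change was 2.02 (95% interval 1.87 to 2.18, adjusted p = 6.64e-08), a 4.07-fold difference. Per length, Fth1 moved from rank 100 to rank 13 among 21826 protein-coding genes and Ftl1 from rank 53 to rank 14. From RPKM and exonic length, the share of a library's reads that fell on Fth1 was 0.104% in naive and 0.727% in vehicle samples, and that on Ftl1 0.0687% and 0.280%.

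**Figure D1:**
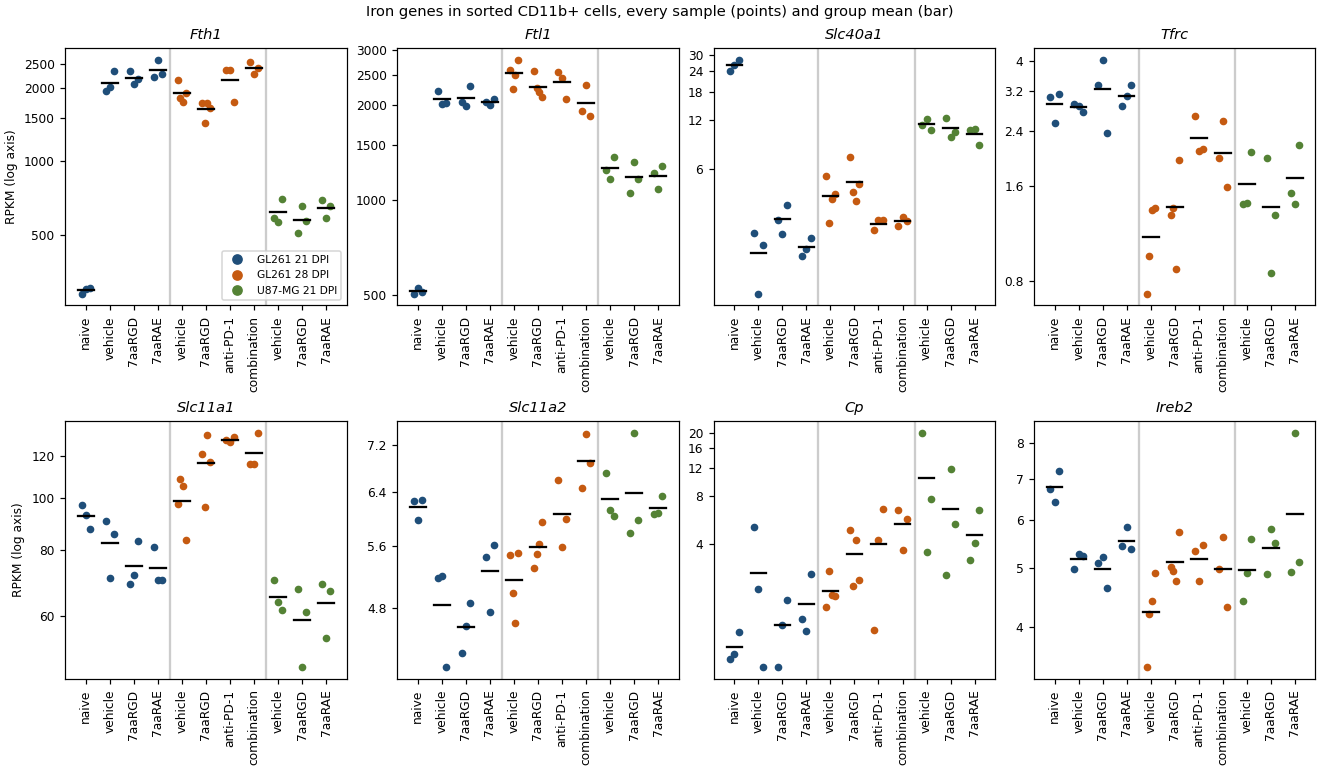
RPKM (log axis) of the 8 iron genes in each of the 35 samples (points), by group along the x axis and colored by experiment, with a bar at the group mean. Each gene has its own y axis, and Slc40a1 is at 24.1 to 28.3 RPKM in naive samples against 1.04 to 2.44 RPKM in the GL261 vehicle samples at 21 DPI.

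The 2 ferritin chains did not move by the same amount. The ratio of Fth1 to Ftl1 was 0.583 ± 0.0135 (SD, n = 3) in naive samples and 1.01 ± 0.146 (n = 3) in vehicle samples, and the groups did not overlap. An exact two-sided permutation test gave p = 0.1, the smallest value that 3 samples against 3 allow. The size of the ratio depends on the exonic lengths used in RPKM (3469 bases for Fth1 and 1340 bases for Ftl1, all annotated exons joined), but its change between groups does not.

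Both genes have many processed pseudogenes. The row of Ftl1-ps1 averaged 0.868 RPKM in the first table, 7.84 RPKM in the second and 4.11 RPKM in the third. These rows do not measure how many ferritin reads were lost or assigned elsewhere because they match several copies, so the ferritin levels are uncertain to that extent.

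Ferroportin went in the opposite direction. Slc40a1 stood at 24.1, 26.2 and 28.3 RPKM in naive samples and at 1.04, 2.07 and 2.44 RPKM in vehicle samples. No vehicle sample came near the naive range, and the mean was 14.2-fold higher in naive samples. On the log2(RPKM + 1) scale the fold change was −3.29 (95% interval −3.70 to −2.87, adjusted p = 7.10e-07). The pseudocount of 1 RPKM understates changes of genes at such low levels. Cp, the ferroxidase partner of ferroportin, was low and variable, at 0.757, 0.816 and 1.13 RPKM in naive and 0.676, 2.10 and 5.09 RPKM in vehicle samples. These ranges overlapped, and the difference of 0.74 (95% interval −0.18 to 1.66, adjusted p = 0.114) did not pass the threshold, though it did without vehicle replicate 3 (1.2, adjusted p = 0.00298).

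The import genes differed far less. Slc11a2 stood at 5.96, 6.26 and 6.28 RPKM in naive and 4.14, 5.17 and 5.20 RPKM in vehicle samples, and fell by 0.30 on the log2 scale (adjusted p = 0.00903). This call rests on the scaling: the median of all tested genes was −0.14 in this comparison and 0.01 with median-of-ratios factors, under which the difference of Slc11a2 became −0.16 (adjusted p = 0.108). Slc11a1 was highly expressed and its ranges overlapped, at 87.7, 93.1 and 97.2 RPKM in naive and 71.0, 85.9 and 90.6 RPKM in vehicle samples (difference −0.17, adjusted p = 0.120), and it passed without vehicle replicate 1 (−0.24, adjusted p = 0.0362). Tfrc was near 3 RPKM in both groups, at 2.54 to 3.13 RPKM in naive and 2.76 to 2.91 RPKM in vehicle samples. Its difference was −0.02 with a 95% interval of −0.20 to 0.15.

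The sensor Ireb2 was modestly lower in vehicle samples. It stood at 6.40, 6.74 and 7.21 RPKM in naive and 4.98, 5.23 and 5.27 RPKM in vehicle samples, without overlap. The log2 fold change was −0.34 (95% interval −0.48 to −0.20, adjusted p = 0.000965). A noise-based test was built after NOISeq, the method the study used, and called genes at a probability above 0.8, a threshold set here. It covered only the iron genes and the gene lists used below, so it gives no share over all genes. In this test Ireb2 and Slc11a2 were not called and Cp was.

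In all, 5 of the 8 genes passed the threshold between vehicle and naive samples, 2 higher and 3 lower, and 5 of 8 did not overlap between the groups. Among all 9722 genes tested, 82.9% passed it (34.6% higher and 48.2% lower) and 85.4% did not overlap, so the count of iron genes is no larger than the background. The median of the 8 differences was −0.10.

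**Figure D2:**
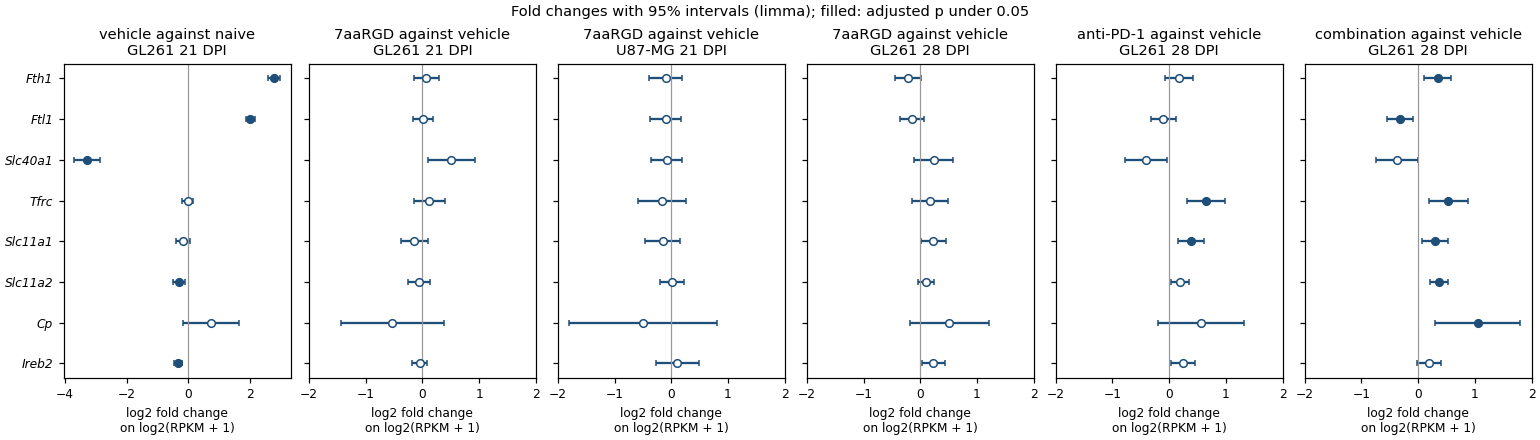
Log2 fold change of the 8 iron genes in 6 comparisons (panels) on the log2(RPKM + 1) scale, with 95% intervals; filled points have an adjusted p under 0.05. The vehicle to naive panel has a wider axis, since Fth1 (2.80) and Slc40a1 (−3.29) lie far outside the range of the peptide and antibody comparisons.

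Levels of cell type markers differed strongly between these groups. The summed level of 12 microglia markers was 18361 to 19129 RPKM in naive and 1563 to 2241 RPKM in vehicle samples, and 12 of 12 fell. The summed level of 12 markers of monocytes and infiltrating macrophages was 43.5 to 46.9 RPKM in naive and 2596 to 3382 RPKM in vehicle samples, and 12 of 12 rose. All 12 microglia markers were at 1 RPKM or more in every group. In these bulk samples, fewer cells of a type and less RNA per cell cannot be told apart, and the part of cell makeup in the values of Slc40a1, Fth1 and Ftl1 was not tested. Across the experiments, Slc40a1 was highest where the microglia markers were highest, at 24.1 to 28.3 RPKM in naive samples, then 8.47 to 12.4 RPKM in the U87-MG samples (microglia markers 7086 to 12120 RPKM) and 1.04 to 7.17 RPKM in GL261-bearing samples (1563 to 3628 RPKM). This order did not hold within the 28 DPI table, where the combination had higher summed microglia markers than vehicle (2707 to 2911 against 1780.1 to 2518 RPKM) and Slc40a1 at 2.71 to 3.08 RPKM against 2.83 to 5.46 RPKM.

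**Figure D3:**
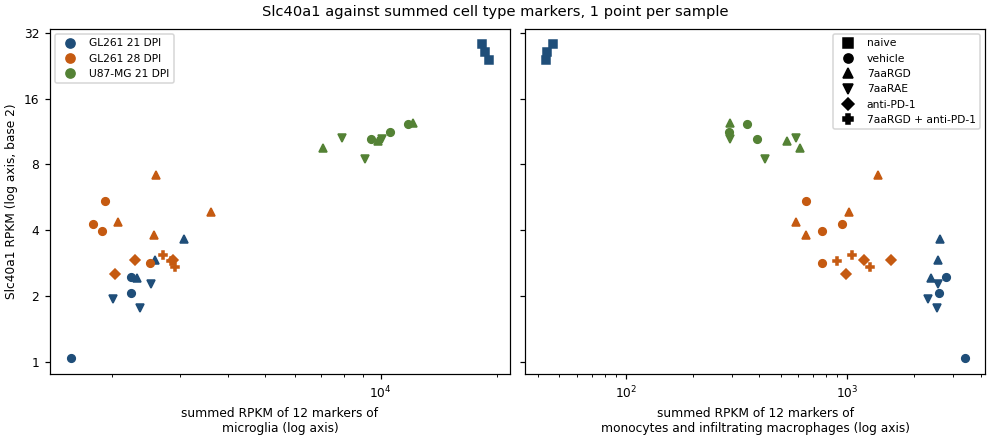
Slc40a1 in RPKM (y axis, log) against the summed RPKM (x axis, log) of 12 microglia markers (left) and 12 monocyte and macrophage markers (right), 1 point per sample, colored by experiment with a symbol for each treatment. In the left panel naive samples lie at the upper right (24.1 to 28.3 RPKM of Slc40a1), U87-MG samples in the middle and GL261 samples at the lower left, and both axes come from the same libraries.

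A list of 78 further genes of iron and heme handling gave 57 that could be tested between vehicle and naive samples, of which 21 rose and 23 fell, with a median log2 fold change of −0.09 beside −0.14 over all genes. With 82.9% of all genes past the threshold here (34.6% higher and 48.2% lower), this count is no larger than the background, and the lists were not tested as groups. Of 10 tested genes of heme uptake, export and breakdown, 6 rose and 3 fell (median 0.55). Hmox1, the heme oxygenase that frees iron from heme, was at 135 ± 32.1 RPKM in vehicle samples (SD, n = 3) and rose by 2.21 on the log2 scale (adjusted p = 5.06e-06). Hp, haptoglobin, which binds free hemoglobin, rose by 3.53 to 80.2 RPKM. The heme and folate transporter Slc46a1 fell by 2.79 to 5.83 RPKM.

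Of 11 tested genes of iron uptake and transport, 7 fell and 1 rose (median −0.86). Trf, transferrin, fell by 2.05 on the log2 scale to a mean of 157 RPKM. The 7 include Ltf (14.1 RPKM in naive and 2.65 RPKM in vehicle samples) and Lcn2 (7.13 and 2.24 RPKM), known as neutrophil granule genes and named after their values were seen. Neutrophil markers fell alongside, 5 of 8 tested with 1 rising (276 to 414 RPKM summed in naive and 63.6 to 199 RPKM in vehicle samples), and their part in this list was not tested. Among the 9 tested genes of iron sensing and ferritin handling, 5 rose and 2 fell (median 0.20). Of this list, 2 further genes were chosen after their values were seen, because they act on ferritin and IRP2 directly. Ncoa4, the cargo receptor that delivers ferritin to lysosomes, fell by 1.02, and Fbxl5, the ubiquitin ligase subunit that removes IRP2 when iron is abundant, rose by 0.55.

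The other lists were mixed. Of 15 genes of iron-sulfur cluster assembly, 7 rose and 5 fell (median 0.11), and of 8 tested genes of heme synthesis, 2 rose and 4 fell (median −0.17). Of the 12 genes listed as export partners or in the hepcidin axis, 4 were expressed enough to test, and 2 of these fell (median −1.25).

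**Figure D4:**
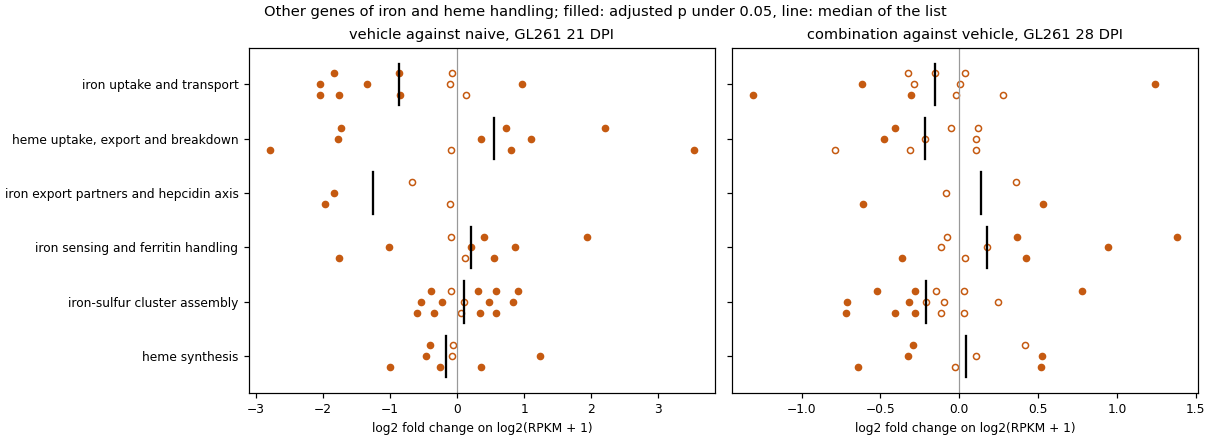
Log2 fold change of the tested genes of iron and heme handling, by list, on the log2(RPKM + 1) scale, for vehicle against naive at 21 DPI (left) and combination against vehicle at 28 DPI (right). Each point is a gene, filled where the adjusted p is under 0.05, and the line is the list's median. Heme uptake, export and breakdown has a median of 0.55 and iron uptake and transport a median of −0.86 between vehicle and naive samples.

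Neither peptide moved the iron genes past the threshold in GL261-bearing mice at 21 DPI. For 7aaRGD against vehicle, 0 of 8 genes passed it in limma (0.148% of 9436 genes did) and the noise-based test called 0. Of all 9436 genes 1278 had an unadjusted p under 0.05, and of the 8 iron genes 1 did. That gene was Slc40a1, at 2.42, 2.92 and 3.63 RPKM with 7aaRGD against 1.04, 2.07 and 2.44 RPKM with vehicle. These ranges overlap narrowly, and the difference was 0.51 (95% interval 0.10 to 0.92, adjusted p = 0.293). The summed microglia markers were also higher with 7aaRGD, at 2321 to 3084 RPKM, and their part in the value was not tested.

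For 7aaRAE against vehicle, 0 of 8 genes passed in limma (0.00% of all genes) and the noise-based test called 0. Of the 8, 0 had an unadjusted p under 0.05, beside 600 of 9436 genes. Ireb2 did not overlap between these groups (12.6% of all genes did not), with a difference of 0.09 (adjusted p = 0.763). Slc40a1 with 7aaRAE stood at 1.76, 1.95 and 2.27 RPKM, within the vehicle range (difference 0.10, 95% interval −0.31 to 0.51). Fth1 was at 2068 to 2343 RPKM under 7aaRGD and at 2215 to 2600 RPKM under 7aaRAE, both overlapping with vehicle. The 95% interval of its difference from vehicle was −0.15 to 0.29 for 7aaRGD and −0.05 to 0.40 for 7aaRAE.

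The peptides, which differ in the RGD to RAE change, were also compared with each other. Again 0 of 8 genes passed in limma (0.00% of all genes) and the noise-based test called 0. Of all 9436 genes 520 had an unadjusted p under 0.05, and of the 8 iron genes 1 did. That gene was Ireb2, at 4.63 to 5.21 RPKM with 7aaRGD and 5.37 to 5.82 RPKM with 7aaRAE (difference −0.13, adjusted p = 0.896). Slc40a1 did not overlap between the peptides either (11.4% of all genes did not), and its difference of 0.41 had a 95% interval of −0.0043 to 0.82 (adjusted p = 0.905). Both peptides shared their vehicle samples, so the values above are not independent of each other.

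At 28 DPI, 7aaRGD alone left the iron genes under the threshold. In limma 0 of 8 were called (0.647% of 9732 genes were), and 0 in the noise-based test. Of all 9732 genes 1421 had an unadjusted p under 0.05, and of the 8 iron genes 2 did. Those 2 were Slc11a1, at 96.3, 117, 121 and 131 RPKM against 83.6, 97.6, 105 and 109 RPKM with vehicle (difference 0.23, adjusted p = 0.293), and Ireb2 (difference 0.23, adjusted p = 0.272). Both overlapped between the groups. Fth1 did not overlap, at 1430, 1657, 1725 and 1729 RPKM with 7aaRGD and 1744, 1813, 1905 and 2149 RPKM with vehicle, and 8.0% of all genes did not overlap in this comparison. Its difference of −0.22 (95% interval −0.44 to 0.01, adjusted p = 0.350) did not pass.

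With anti-PD-1 alone, 2 of 8 iron genes passed the threshold and both rose, against 23.1% of all genes (10.8% higher). Tfrc, the transferrin receptor, stood at 2.06, 2.09 and 2.68 RPKM with anti-PD-1 and at 0.728, 0.957, 1.34 and 1.36 RPKM with vehicle. The groups were fully apart, and the log2 fold change was 0.65 (SE 0.16, adjusted p = 0.0103), a 2.08-fold difference at levels near 1 or 2 RPKM. Slc11a1, the phagosomal transporter, stood at 128, 129 and 130.1 RPKM with anti-PD-1, above all 4 vehicle samples, with a log2 fold change of 0.39 (SE 0.11, adjusted p = 0.0197). This call was lost without vehicle replicate 4 (0.31) and without anti-PD-1 replicate 1 (0.39), 2 (0.39) or 3 (0.38), each time with an adjusted p between 0.0504 and 0.0565. Without vehicle replicate 4 or anti-PD-1 replicate 2 the count of iron genes past the threshold was 1. In the noise-based test, Slc11a1 was called and Tfrc was not.

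Other iron genes pointed to differences with anti-PD-1 that did not pass. Slc11a2 did not overlap, at 5.58 to 6.60 RPKM against 4.62 to 5.50 RPKM with vehicle (difference 0.20, adjusted p = 0.0670). Slc40a1 was at 2.53 to 2.92 RPKM against 2.83 to 5.46 RPKM (difference −0.41, adjusted p = 0.102), and without vehicle replicate 2 its difference was −0.55 (adjusted p = 0.0351). Fth1 was at 2358 and 2363 RPKM in 2 anti-PD-1 samples and at 1747 RPKM in replicate 3. That sample also held the lowest NK and T cell markers of its group, 3.51 RPKM summed over 10 genes against a highest value of 68.1 RPKM. Other marker lists are not given for this sample, and the part of any of them in its Fth1 value was not tested. Without that sample, Fth1 passed (0.32, adjusted p = 0.0406) and Slc11a1 did not, so the count of 2 called genes held Tfrc and Fth1. Cp passed without anti-PD-1 replicate 1 (1.08, adjusted p = 0.0175). Among all genes, 32.5% did not overlap between anti-PD-1 and vehicle, and 3 of the 8 iron genes did not.

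Cell type markers moved in this comparison too. Of 12 markers of monocytes and infiltrating macrophages 6 rose (990 to 1576 RPKM summed with anti-PD-1 and 650.3 to 947 RPKM with vehicle), as did 3 of 12 microglia markers (2035 to 2882 against 1780.1 to 2518 RPKM), 2 of 2 tested dendritic cell markers and 2 of 3 tested endothelial markers. Of 5 tested NK and T cell markers 0 passed in limma, with sums of 3.51 to 68.1 RPKM against 3.92 to 12.3 RPKM. Of 4 tested oligodendrocyte markers 2 rose. The part of all these markers in the values of Tfrc and Slc11a1 was not tested.

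With the combination of peptide and antibody, Fth1, Tfrc, Slc11a1, Slc11a2 and Cp rose and Ftl1 fell. Against vehicle, 6 of 8 thus passed the threshold (43.3% of all genes did), 5 higher (17.5%) and 1 lower (25.8%), and 5 of 8 did not overlap (48.8% of all genes). The ferritin chains moved apart. Fth1 stood at 2282, 2412 and 2537 RPKM with the combination, above the 4 vehicle samples (1744 to 2149 RPKM), and rose by 0.34 (SE 0.11, adjusted p = 0.0241). Ftl1 stood at 1853, 1913 and 2317 RPKM against 2246, 2497, 2595 and 2794 RPKM with vehicle, which overlap, and fell by 0.32 (SE 0.10, adjusted p = 0.0231).

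The ratio of Fth1 to Ftl1 carries both movements. It was 0.754 ± 0.0745 (SD, n = 4) with vehicle, 0.718 ± 0.0767 (n = 4) with 7aaRGD, 0.908 ± 0.0685 (n = 3) with anti-PD-1 and 1.20 ± 0.190 (n = 3) with the combination. The combination samples lay above all samples of the other 3 groups. An exact two-sided permutation test gave p = 0.0286 for the combination against vehicle and against 7aaRGD, the smallest value that 3 samples against 4 allow, and p = 0.0571 for anti-PD-1 against vehicle. Against anti-PD-1 the exact p was 0.1, again the smallest possible. Over the 12 comparisons of the ratio these values became 0.171 after Benjamini-Hochberg adjustment. The smallest p-values that these group sizes allow are too large for any of the 12 to pass the threshold, whatever the data. The adjusted values therefore cannot decide whether the ratio differed.

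**Figure D5:**
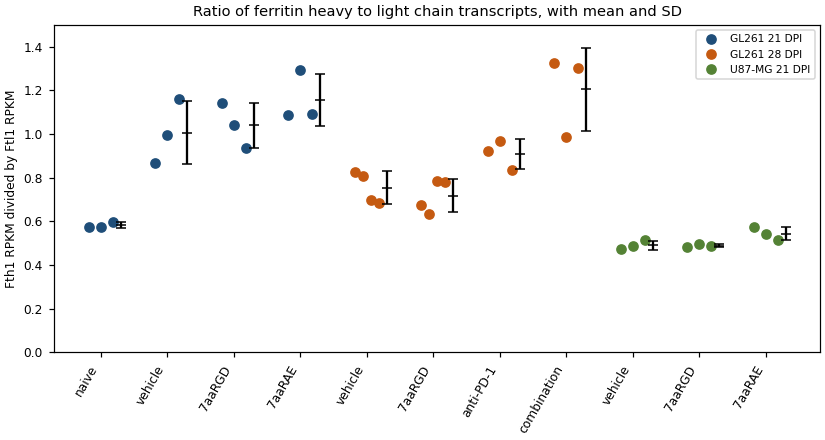
Ratio of Fth1 to Ftl1 RPKM in each of the 35 samples by group, with the group mean and SD. The naive and U87-MG groups have means of 0.583 and 0.489 to 0.544, the GL261 groups at 21 DPI 1.01 to 1.16, and at 28 DPI the combination (1.20) lies above vehicle (0.754).

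The import genes rose with the combination. Tfrc stood at 1.58, 1.96 and 2.57 RPKM, above all vehicle samples, with a log2 fold change of 0.53 (SE 0.16, adjusted p = 0.0148). Slc11a2 stood at 6.46, 6.89 and 7.40 RPKM against 4.62, 4.98, 5.48 and 5.50 RPKM with vehicle, a clear separation of 0.37 (SE 0.074, adjusted p = 0.00150). Slc11a1 stood at 115.8, 116 and 133 RPKM, also above vehicle, with a difference of 0.30 (SE 0.11, adjusted p = 0.0361). Cp, the ferroxidase, stood at 3.67, 5.74 and 6.60 RPKM against 1.60, 1.89, 1.91 and 2.70 RPKM with vehicle, and rose by 1.05 (SE 0.35, adjusted p = 0.0268). Slc40a1 (2.71 to 3.08 RPKM, difference −0.37, adjusted p = 0.0970) and Ireb2 (4.31 to 5.62 RPKM, difference 0.19, adjusted p = 0.140) did not pass, though Slc40a1 did without vehicle replicate 2 (−0.51, adjusted p = 0.0254) and Ireb2 with median-of-ratios factors (0.24, adjusted p = 0.0418).

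Most of these calls lie near the threshold. Without a filter on low values 2 of 8 were called, Tfrc and Slc11a2, and the noise-based test called Fth1, Ftl1, Slc11a1 and Cp. Leaving out 1 library gave 2 calls without combination replicate 1 or 3 and 3 without vehicle replicate 1 or 4. Fth1 lost its call without vehicle replicate 2 (0.32) or 3 (0.30) and without combination replicate 1 (0.31) or 3 (0.34). Ftl1 lost it without vehicle replicate 1 (−0.31) or 4 (−0.27) and without combination replicate 1 (−0.29) or 3 (−0.26). Tfrc lost it without combination replicate 2 (0.41). Slc11a1 lost it without vehicle replicate 1 (0.30) or 4 (0.22) and without combination replicate 1 (0.33), 2 (0.33) or 3 (0.24), and Cp without vehicle replicate 1 (0.98) or 4 (1.03) and combination replicate 1 (0.90) or 3 (0.99). Slc11a2 was called without each library in turn, and no direction turned.

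Levels of cell type markers also differed between the combination and vehicle. NK and T cell markers summed to 26.4 to 80.8 RPKM with the combination and to 3.92 to 12.3 RPKM with vehicle, and 4 of 5 tested rose. Dendritic cell markers summed to 14.1 to 17.5 RPKM against 1.69 to 3.97 RPKM. Of 12 microglia markers 7 rose, and of 12 monocyte and macrophage markers 6 rose. So did 2 of 4 tested oligodendrocyte, 2 of 3 tested endothelial and 1 of 3 tested astrocyte markers. Lower were 2 of 7 dividing-cell, 1 of 8 tested neutrophil, 1 of 6 tested border-associated macrophage markers and the 1 tested neuron marker. Erythroid markers summed to 1.47 to 4.07 RPKM with the combination and 3.14 to 6.60 RPKM with vehicle, so red cell RNA was low in both. The part of these markers in the iron gene values was not tested.

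Against 7aaRGD alone, the combination had 3 of 8 iron genes past the threshold (36.6% of all genes passed it), 2 higher (13%) and 1 lower (23.6%), and 3 did not overlap (40.4%). Fth1 rose by 0.56 (SE 0.11, adjusted p = 0.00198), a 1.47-fold difference between 2282 to 2537 RPKM and 1430 to 1729 RPKM. Slc11a2 rose by 0.26 (SE 0.074, adjusted p = 0.0135), and was not called without combination replicate 2 (0.22, adjusted p = 0.0616). Slc40a1 stood at 2.71, 2.89 and 3.08 RPKM with the combination and at 3.81, 4.36, 4.86 and 7.17 RPKM with 7aaRGD, and fell by 0.61 (SE 0.17, adjusted p = 0.0149). It was not called without combination replicate 1 (−0.57, adjusted p = 0.0548). Tfrc (difference 0.37, adjusted p = 0.0857) missed the threshold and passed it without 7aaRGD replicate 4 (0.48, adjusted p = 0.0296). The noise-based test called Fth1 only. Markers of other cell types moved as well: 5 of 5 tested NK and T cell, 6 of 12 monocyte and macrophage, 3 of 12 microglia and 2 of 2 tested dendritic cell markers rose, while 1 of 8 neutrophil, 1 of 6 border-associated macrophage and 2 of 7 dividing-cell markers fell. Of 4 tested oligodendrocyte markers 2 rose, as did 2 of 3 tested endothelial markers, and the 1 tested neuron marker fell. The part of all these markers in the values of Fth1, Slc40a1 and Slc11a2 was not tested.

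Against anti-PD-1 alone, the combination had 0 of 8 iron genes past the threshold in limma (0.0411% of all genes) and 0 in the noise-based test. Of the 8, 0 had an unadjusted p under 0.05, beside 1459 of 9732 genes. The nearest were Slc11a2 (difference 0.17, 95% interval −0.0027 to 0.34, adjusted p = 0.341) and Ftl1 (difference −0.22, 95% interval −0.46 to 0.02, adjusted p = 0.369). The interaction of 7aaRGD and anti-PD-1 asks whether the combination departs from the sum of the separate differences. In limma 0 of 8 genes passed the threshold for it (0.00% of all genes). Of all 9732 genes 794 had an unadjusted p under 0.05, and of the 8 iron genes 1 did. That gene was Fth1, with an interaction of 0.39 (SE 0.16, 95% interval 0.05 to 0.73, adjusted p = 0.593). The noise-based test has no interaction.

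The wider list of iron and heme genes gave 26 of 56 tested genes past the threshold between combination and vehicle, 9 higher and 17 lower (median −0.09, beside −0.05 over all genes). Of all genes, 43.3% passed, 17.5% higher and 25.8% lower, so the list stands near the background. Hif1a, the oxygen-sensing transcription factor subunit, rose by 1.38 to 83.2 RPKM. Slc25a37, which carries iron into mitochondria, rose by 1.24, and Nfe2l2, the transcription factor NRF2, which induces ferritin genes, by 0.95. Of 11 tested genes of iron uptake and transport 3 fell and 1 rose (median −0.15). Of 15 genes of iron-sulfur cluster assembly 7 fell and 1 rose (median −0.21). Lcn2, a carrier of iron-binding siderophores, fell by 1.31 at a mean of 1.64 RPKM. Neutrophil markers summed to 86.2 to 207 RPKM with the combination and 160 to 366 RPKM with vehicle, and their part in its value was not tested.

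With anti-PD-1 alone 12 of 56 listed genes passed, 6 higher and 6 lower (median −0.04), against 23.1% of all genes, among them Slc25a37 (1.00), Hif1a (0.81), Hscb (−0.61) and Nfe2l2 (0.60). Without anti-PD-1 replicate 2 it was 7. Against 7aaRGD the combination had 24 of 56, 7 higher and 17 lower (median −0.12), against 36.6% of all genes, with Hmox1 falling by 1.29 to 125 RPKM. These comparisons share samples with each other, so their values are given side by side only. In limma 0 listed genes passed in the remaining 9 comparisons. There, 1 to 8 of 56 to 58 listed genes had an unadjusted p under 0.05, beside 326 to 1459 of all tested genes. The noise-based test, which has no interaction, called 1 to 6 listed genes.

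In the U87-MG experiment the iron genes lay within the replicate spread. In limma 0 of 8 passed in 7aaRGD against vehicle (0.00% of 9659 genes), in 7aaRAE against vehicle (0.0104%) and in 7aaRGD against 7aaRAE (0.00%). In each, 0 of 8 had an unadjusted p under 0.05, beside 364, 746 and 326 of the 9659 genes. The noise-based test called 1, 1 and 0 genes, in both cases Cp. Cp stood at 3.57, 7.68 and 19.9 RPKM with vehicle, 2.56, 5.35 and 11.9 RPKM with 7aaRGD and 3.20, 4.04 and 6.54 RPKM with 7aaRAE. It varied more between replicates than between groups, and its differences had wide intervals, −1.81 to 0.81 for 7aaRGD and −2.10 to 0.52 for 7aaRAE.

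Slc40a1 was steady in these samples, at 10.5, 11.2 and 12.2 RPKM with vehicle, 9.47, 10.2 and 12.4 RPKM with 7aaRGD and 8.47, 10.4 and 10.6 RPKM with 7aaRAE. Fth1 was at 568 to 705 RPKM with vehicle, 510 to 656 RPKM with 7aaRGD and 589 to 697 RPKM with 7aaRAE, all overlapping. Ftl1 lay at 1056 to 1371 RPKM over the 9 samples. The Fth1 to Ftl1 ratio was 0.491 ± 0.0206 with vehicle, 0.489 ± 0.00658 with 7aaRGD and 0.544 ± 0.0295 with 7aaRAE (SD, n = 3 each). The 7aaRAE samples lay above those of both other groups, with an exact p of 0.1 each, the smallest possible, and 0.171 after adjustment. Erythroid markers summed to 9.33 to 149 RPKM with 7aaRAE (mean 56.9 RPKM) and to 9.32 to 35.3 RPKM with vehicle or 7aaRGD. The part of these markers in the ratio was not tested.

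Set side by side per length, Ftl1 and Fth1 led the 8 genes in all 11 groups, in an order that differed between groups. Slc11a1 followed at 48.2 to 133 RPKM, which makes it the most abundant of the import genes in every sample. Slc11a2 (4.14 to 7.41 RPKM) and Ireb2 (3.44 to 8.32 RPKM) lay close together, and their ranges overlapped in some groups but not in others. Tfrc was at 0.728 to 4.04 RPKM throughout. Cp had the lowest mean of the 8 genes in naive samples (0.900 RPKM). Its mean was above those of Slc11a2 and Ireb2 in U87-MG vehicle samples (10.4 against 6.29 and 4.96 RPKM). With the combination it was above that of Ireb2 (5.34 against 4.97 RPKM). The place of Slc40a1 shifted most: it was the fourth of the 8 genes in naive samples and in the U87-MG groups, and below Slc11a2 and Ireb2 in the GL261 groups at 21 DPI and in the GL261 groups with anti-PD-1. At 28 DPI with vehicle or 7aaRGD its range overlapped those of Slc11a2 and Ireb2.

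The genes whose log2(RPKM + 1) values followed each member most closely over the 35 samples, among 9065 genes and after centring each table on its mean, were listed as a description, since all values share libraries and tables. For Fth1 these were the antioxidant genes Txn1 (Pearson r = 0.986) and Prdx6 (0.986) and the cathepsin inhibitor Cstb (0.983). For Ftl1 they were Arpc3 (0.983), Rab8a (0.978) and Acp5 (0.978), and for Slc40a1 Stxbp5 (0.975), Agmo (0.974) and Zdhhc14 (0.970). The likeness was lower for the import genes, with Ywhae (0.80) for Tfrc, Cryba4 (0.786) for Slc11a1 and Ptpro (0.812) for Slc11a2. Ireb2 was most like Trappc8 (0.879), and Cp had the weakest neighbor, Tbc1d8 (0.673). Centring each table left the difference between naive and tumor-bearing samples of the first table in these values. Between vehicle and naive samples 82.9% of tested genes passed the threshold. The part of this difference in r was not tested.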

How the data were processed

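CD11b+ cells were sorted from brain hemispheres and their RNA was sequenced. Before deposition the authors used Trimmomatic, STAR (mm10) and HTSeq 0.11.1, and the deposited values are RPKM plus a constant of 2, which was subtracted here. Of 54513 rows, 98.7% matched GENCODE M21, which gave names, exonic lengths and UTRs. Protein-coding genes averaging 1 RPKM or more were tested on log2(RPKM + 1) with limma 3.58.1 (trend, R 4.3.3), with Benjamini-Hochberg adjustment over all tested genes and a threshold of 0.05. The code was tested on simulated data. All 8 iron genes passed the filter in each comparison. By rule, up to 4 listed pathway genes with the largest change past the threshold in a comparison and the 3 genes most like each iron gene could be named, and Ncoa4, Fbxl5, Ltf and, at 21 DPI, Lcn2 were added after their values were seen. Members and lists were chosen with earlier results of these data known. Of 40 labelled samples, 5 (naive nude mice, and 1 each with anti-PD-1 and the combination) were not analysed here. Residuals of same-numbered samples correlated above 0.1 in 1 of 9 pairs at 21 DPI and 3 of 19 at 28 DPI, so the numbers were not treated as pairs. Alternatives covered scaling, pseudocount, filter, threshold, replicate block, left-out libraries and a noise-based test.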

Additional observations from a re-analysis of the deposited data

How the results depend on the processing

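The 29 fold changes of the iron genes with an unadjusted p under 0.05 or without overlap between the groups were followed over 514 alternative values. Of these values, 467 kept direction and side of the threshold, 38 fell short of it, 9 newly passed it and 0 changed direction. Because the 29 were chosen by outcome, these counts do not describe the other fold changes. Some of those passed in single alternatives, as given above for Cp, Fth1, Slc11a1 and Ireb2, and are not among the 9. The number of iron genes past the threshold moved by over 1.5 times as follows. For anti-PD-1 against vehicle (2 genes) it was 1 with a minimum mean of 5 RPKM, which leaves Tfrc untested, 4 at an adjusted p under 0.1 and 1 in the noise-based test. For the combination against vehicle (6 genes) it was 2 without a filter on low values, where more genes are tested. For the combination against 7aaRGD (3 genes) it was 1 in the noise-based test. For 7aaRGD and for 7aaRAE against vehicle in U87-MG (0 genes) it was 1 each in that test. Apart from the cases stated, the cause was not tested. Of the wider iron list, 28 in place of 44 genes passed for vehicle against naive and 17 in place of 26 for the combination against vehicle with a minimum of 5 RPKM, and the noise-based test called 16 and, against 7aaRGD, 14 in place of 24. Leaving out 1 library gave 5 to 6 genes for vehicle against naive, 1 to 3 for anti-PD-1 against vehicle, 2 to 6 for the combination against vehicle, 2 to 4 for the combination against 7aaRGD and 0 in all other comparisons. The replicate numbers share no stated origin. With a replicate block, 5 genes were called for vehicle against naive, 2 for anti-PD-1 against vehicle, 4 for the combination against vehicle (Slc11a1 and Cp not called) and 4 for the combination against 7aaRGD (Tfrc added). No paired analysis was possible in U87-MG because its columns carry no replicate numbers. Taking 1 degree of freedom away was chosen after seeing the data. The unknown depth limits what can be said of Tfrc, Cp and, in GL261 samples, Slc40a1, which lie near 1 to 5 RPKM.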
